A study of Homo sapiens with 10 samples.

Results

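The comparison set inducible T47D breast cancer lines that carried a progesterone receptor (PR) beside the line that carried the empty vector, on arrays without the progestin R5020. T47D is a luminal breast cancer line, and the labels give T47D-Y as the parent of all the cells and PR null as the genotype of iEV. The empty-vector line iEV was on 2 arrays, 1 without and 1 with the inducer AP21967. The wild-type PR line iWT and the line with the K388R receptor, iKR, whose PR cannot be SUMOylated at that lysine, were likewise on 1 array without and 1 array with AP21967 each, so 4 receptor-carrying arrays stood against 2 iEV arrays. These 6 of the 10 arrays were all those without R5020, and they were chosen by their labels alone. The other 4 arrays held iWT and iKR cells given R5020 for 6 h, and iEV had no array with R5020. All cells grew with G418 and hygromycin B, were starved of serum and received AP21967 or ethanol for 2 days and then ethanol in place of R5020 for 6 h. Each vector was represented by 1 clonal line and each condition by 1 array. A difference between receptor and vector therefore cannot be told apart from a difference between clones. The p-values measure the spread between arrays and between the 2 receptor lines, not between clones of 1 vector.

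PR is a nuclear receptor that, once it binds progestin, activates or represses genes through DNA elements and through other factors, and it can also act on some genes with no ligand. In breast epithelium PR carries signals for growth and differentiation. AP21967 joins the parts of a hybrid transcription factor, which then drives the vector. SUMOylation of PR is known as a modification that restrains transcription at many of its genes.

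The arrays were Affymetrix 3′ expression chips, and all values below are the deposited log2 levels or log2 differences. The medians of the 6 arrays without R5020 lay between 8.12 and 8.14. The 8 luminal epithelial markers, among them KRT8, KRT18, EPCAM, GATA3 and ESR1, were between 9.65 and 15.04 on every one of the 6 arrays, and none passed the test. Of the 4 basal markers KRT14 stayed below 6 on all 6 arrays, OXTR was between 5.93 and 6.08, and KRT5 and ACTA2 were between 7.64 and 7.90. Of the 5 mesenchymal markers COL3A1 and ZEB1 stayed below 6. VIM was between 8.74 and 9.18, COL1A1 between 9.59 and 9.77 and FN1 between 8.62 and 9.99. FN1, the fibronectin gene, was the only marker of the 5 cell types listed that passed the test, with a difference of -0.86 ± 0.23 (SE, adjusted p = 0.0467); it lost the call without either iEV array (adjusted p = 0.272 and 0.306) and without the iKR array lacking AP21967. In such bulk RNA, fewer cells of a type and less RNA per cell cannot be told apart.

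PGR itself, which encodes PR, was at 6.25 and 6.17 on the iEV arrays without and with AP21967. In iWT it was at 11.12 and 11.34, and in iKR at 10.65 and 12.08. The difference was 5.08 ± 0.28 (SE, n = 4 against 2 arrays; adjusted p = 0.00023), or 33.9-fold. The mRNA was thus high in both receptor lines without the inducer as well, and the arrays do not show how much of it came from the vector.

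Of 10840 genes tested, 1021 were higher in the receptor-carrying lines (9.42%) and 948 were lower (8.75%), by limma with AP21967 as a covariate and a Benjamini-Hochberg adjusted p below 0.05. The counts rested on both iEV arrays: without the iEV array lacking AP21967 they were 211 and 144, and without the iEV array with AP21967 they were 119 and 109, when the lone iEV array was assumed to vary like the others. In 2398 genes (22.1%) all 4 receptor-carrying arrays lay above both iEV arrays, and in 2255 (20.8%) all lay below. An exact permutation test of 4 against 2 arrays cannot go below p = 0.0667.

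A difference of at least 2.0 fold in each receptor line, past the same test, was seen in 32 higher genes (0.295%) and 62 lower genes (0.572%). In iWT alone 39 genes were past 2.0 fold upward and 82 downward, and in iKR 69 and 92. Both lines were measured against the same iEV arrays, so their differences are not independent. In 26 of the 32 higher and 49 of the 62 lower genes the 2.0 fold held for each receptor-carrying array against the iEV array of the same AP21967 state. The iKR difference was the larger in 22 of the 32 and 43 of the 62. All 94 genes also passed with the line taken as a random block. That fit used 1 correlation of 0.175 between arrays of a line for all genes. It does not make up for having 1 clone per vector. On the 4 arrays with R5020, which played no part in the choice of these genes, all 32 higher genes were still above both iEV arrays. Of the 62 lower genes 59 were still below, and the 3 exceptions were FKBP5, ZBTB16 and EAF2. The same 2 iEV arrays that chose the genes and the same clones were used, so this is not an independent check. Of all genes above or below on the 4 arrays without R5020, 58.1% and 67.0% stayed apart when the R5020 arrays were added. Those genes include many with differences under 2.0 fold, so the sets are not alike.

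**Figure D1:**
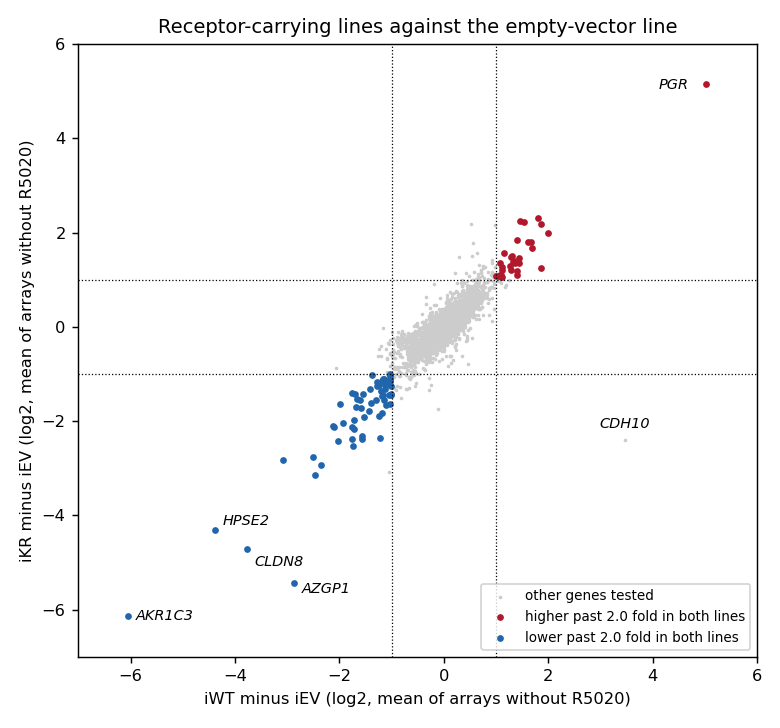
Log2 difference of iKR from iEV (vertical) against that of iWT from iEV (horizontal) for each gene tested, as means over the arrays without R5020. Red points mark the 32 higher and blue points the 62 lower genes past 2.0 fold in both lines, dotted lines mark 2.0 fold, and CDH10 lies alone at the lower right with 3.47 in iWT and -2.40 in iKR.

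The higher genes after PGR were led by S100A8, a calcium-binding protein of epithelium and myeloid cells, with 9.63 and 9.64 in iEV, 11.14 and 11.73 in iWT and 11.53 and 12.35 in iKR (values without and then with AP21967, here and below). ASS1, which makes argininosuccinate for arginine synthesis, was at 10.09 and 10.09 in iEV, 11.83 and 12.07 in iWT and 12.20 and 12.33 in iKR. IGF1R, the receptor for insulin-like growth factor 1, was at 8.02 and 7.75 in iEV and between 9.82 and 9.91 on the 4 receptor-carrying arrays. The differences were 2.06 ± 0.23, 2.02 ± 0.12 and 1.99 ± 0.06 in that order, with adjusted p of 0.0023, 0.00034 and 2.8e-05. In none of the 3 did the groups overlap, and IGF1R differed by less between the 4 receptor-carrying arrays than between the 2 iEV arrays. One of 2 other IGF1R probe sets gave 1.47 and the other, at a level of 5.8, gave -0.01.

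Among the other higher genes were a pair of neighbors and some genes of cell junctions. SPRR1A and SPRR3 encode small proline-rich proteins of the cornified envelope, were higher by 1.67 ± 0.08 (adjusted p = 0.00015) and 1.62 ± 0.20 (adjusted p = 0.0033). SPRR1A was at 10.60 and 10.56 in iEV and between 12.10 and 12.42 on the receptor-carrying arrays. TJP1, the tight-junction scaffold ZO-1, was at 10.17 and 10.16 in iEV and between 11.55 and 11.68 in the receptor lines. CTNND2, delta-catenin, rose by 1.70 ± 0.09 (adjusted p = 0.00016), and DSC2, a desmosomal cadherin, by 1.28 ± 0.06 (adjusted p = 0.00016). Other genes among the 15 with the largest higher differences were CDC42EP3 (1.88 ± 0.28), ADM, the vasodilator peptide adrenomedullin (1.86 ± 0.28), MMUT, the mitochondrial methylmalonyl-CoA mutase (1.74 ± 0.08), PAGE4 (1.55 ± 0.21), IGF2BP2 (1.40 ± 0.08), IL1RN, the interleukin-1 receptor antagonist (1.40 ± 0.07), and SYTL2 (1.38 ± 0.11). Of the 15, S100A8, SPRR3, CDC42EP3, ADM and PAGE4 lost their call when the iEV array with AP21967 was left out (adjusted p between 0.0663 and 0.135), and the last 3 also without the other iEV array (0.0584 to 0.0932).

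**Figure D2:**
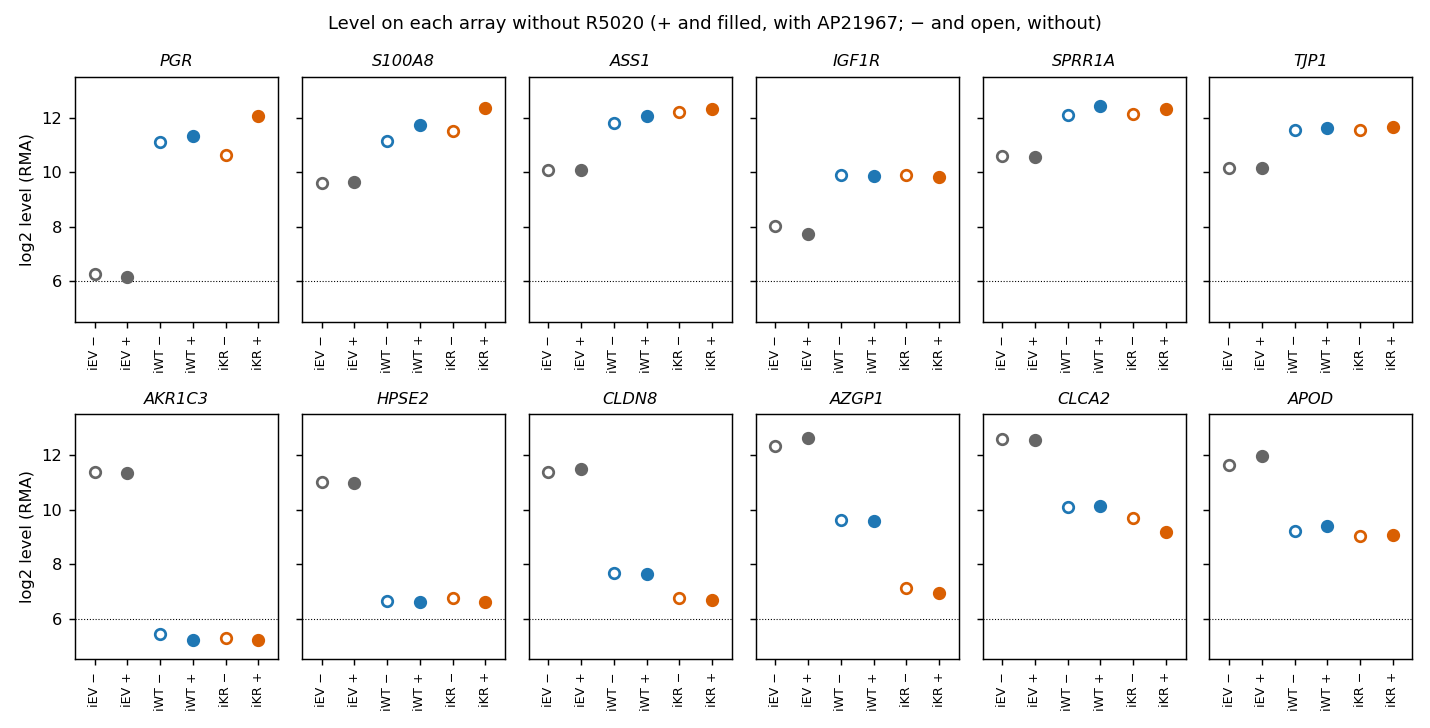
Log2 level of 6 higher and 6 lower genes on each of the 6 arrays without R5020, with iEV in gray, iWT in blue and iKR in orange, and filled points for AP21967. In each panel the iEV points lie apart from the 4 receptor-carrying points, and the dotted line marks the level of 6 used as the filter.

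Of the 62 lower genes 13 were past 4-fold, as were 3 of the 32 higher genes. In 6 of the lower genes the mean of the receptor lines was under the level of 6 used as the filter, so only a bound was measured there. AKR1C3, an aldo-keto reductase that converts steroid hormones and prostaglandins, was at 11.40 and 11.35 in iEV, 5.45 and 5.21 in iWT and 5.29 and 5.21 in iKR. Its difference was -6.09 ± 0.06 (adjusted p = 1.6e-07); with the receptor lines set to 6, iEV was at least 41.6-fold higher. HPSE2, a heparanase-family gene, was at 11.03 and 10.98 in iEV and between 6.62 and 6.75 in the receptor lines, a difference of -4.34 ± 0.06 (adjusted p = 2.7e-07). These were the lowest adjusted p-values among the named genes.

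CLDN8, a tight-junction claudin, was at 11.37 and 11.49 in iEV, 7.66 and 7.64 in iWT and 6.74 and 6.69 in iKR. AZGP1, a secreted zinc-binding glycoprotein of luminal epithelium, was at 12.34 and 12.64 in iEV, 9.64 and 9.59 in iWT and 7.14 and 6.95 in iKR. Both were thus lowest in iKR, intermediate in iWT and highest in iEV. The mean differences were -4.25 ± 0.32 (adjusted p = 0.00073) and -4.16 ± 0.87 (adjusted p = 0.021), and that of AZGP1 lost its call without either iEV array (adjusted p = 0.177 and 0.224). APOD, a lipocalin, fell by 2.64 ± 0.12, with 11.64 and 11.99 in iEV and 9.03 to 9.39 in the receptor lines. CLCA2, a regulator of chloride conductance in epithelium, fell by 2.80 ± 0.25, and its 3 other probe sets gave -2.94 to -2.75. CLCA2 was at adjusted p = 0.0528 without the iEV array with AP21967.

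The 62 lower genes held 5 X-linked genes, which is 1.23% of those tested on that chromosome, beside 1.36% on chromosome 3 and 1.55% on chromosome 21. ARMCX2, an armadillo-repeat gene, fell by 2.96 ± 0.10 and TSPAN7, a tetraspanin gene, fell by 2.12 ± 0.06. SH3BGRL had a difference of -2.22 ± 0.14 and HMGN5, which encodes a nucleosome-binding protein, one of -2.12 ± 0.06, measured only as a bound of at least 3.39-fold. The fifth was the melanoma antigen gene MAGEC2 (-1.85 ± 0.10). A second probe set of HMGN5 at a level of 5.7 gave -0.13, and one of MAGEC2 gave 0.00. The remaining genes of the 15 were IFI27 (-2.64 ± 0.23) and IFI6 (-1.97 ± 0.29), described below, GASK1B (-2.13 ± 0.33), BCHE, butyrylcholinesterase (-2.06 ± 0.22), and SUSD5 (-1.99 ± 0.08). GASK1B, BCHE and IFI6 lost their call without either iEV array (adjusted p between 0.0559 and 0.14).

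Interferon-stimulated genes formed the gene list with the largest share of lower calls. Interferons bind surface receptors and switch on antiviral genes that carry an interferon-stimulated response element, read here as GAAA, any 2 bases and GAAA on either strand. RefSeq promoter windows (GRCh38.p14, 250 bases before to 50 after the start of each gene) were given for 28 of the 36 list genes tested, and 20 of those windows (71.4%) held the element, against 3.65% of all 27305 windows and 2.88% of those of genes tested. Stretches of the IFI27, IFI6 and IFIT1 windows are shown because these genes were among the lowest of the list in the receptor lines, with 1 match of each in capitals.
IFI27, chr14:94110616-94110675, plus strand: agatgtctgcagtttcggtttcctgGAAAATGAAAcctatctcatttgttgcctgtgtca
IFI6, chr1:27672273-27672332, minus strand: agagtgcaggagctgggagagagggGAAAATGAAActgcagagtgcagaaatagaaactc
IFIT1, chr10:89392482-89392541, plus strand: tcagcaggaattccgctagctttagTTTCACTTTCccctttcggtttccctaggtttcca
Among list genes called lower, 12 of the 17 windows given (70.6%) held the element, close to the 71.4% of the whole list. A match in the letters is a description of the window, not of binding in these cells. The progesterone response element was read as GNACA, any 3 bases and TGTNC on either strand. It was in 0 of the windows given for 27 higher and 49 lower genes past 2.0 fold, and in 0.388% of all windows. At so low a share sets of this size were likely to hold 0, so nothing is concluded from it. Elements outside the windows were not read.

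Of the 36 interferon-stimulated genes tested, 22 were lower in the receptor-carrying lines (61.1%, against 8.75% of all genes) and 2 were higher, and the median difference was -0.42 against 0.00 over all genes. In 26 of the 36 all 4 receptor-carrying arrays lay below both iEV arrays (72.2%, against 20.8%). With the R5020 arrays included this held in 25 of the 36, and in 1511 of all 10840 genes. The difference was more negative in iKR than in iWT in 31 of the 36, and in 5579 of all 10840 genes. The gap between the receptor lines was not tested. IFI27 was at 9.97 and 9.89 in iEV, 7.33 and 7.85 in iWT and 6.80 and 7.19 in iKR. MX1, a GTPase that blocks viruses, was at 10.88 and 10.85 in iEV, 9.33 and 9.97 in iWT and 8.38 and 8.65 in iKR. Both genes were thus highest in iEV and lowest in iKR. IFIT1, a sensor of foreign RNA, was at 8.96 and 9.25 in iEV, 7.60 and 8.11 in iWT and 7.07 and 7.37 in iKR. IFI6 was at 10.34 and 10.51 in iEV and between 8.05 and 9.11 in the receptor lines. The adjusted p-values were 0.0011 for IFI27, 0.0064 for IFI6, 0.0264 for MX1 and 0.0059 for IFIT1. Without 1 or the other iEV array those of IFI6, MX1 and IFIT1 rose to between 0.102 and 0.26, and 3 or 4 list genes were called lower instead of 22; without the iKR array lacking AP21967 the count was 14.

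Other lower members were IFI44 (-1.51 ± 0.09, at least 2.79-fold with the receptor lines set to 6), OAS3 (-1.04 ± 0.06), which makes the activator of RNase L, ISG15, a ubiquitin-like modifier (-0.98 ± 0.24), and IRF9, an interferon regulatory factor (-0.47 ± 0.11). The 2 members that rose were RSAD2, the antiviral enzyme viperin (0.62 ± 0.06), and ISG20, an exonuclease on chromosome 15 (0.74 ± 0.07). Of 23 antigen presentation genes 3 were higher and 4 lower (17.4%), with a median of 0.04, and 18 of the 23, with all 3 higher ones, lie in a part of chromosome 6 described below in which 40.8% of genes were higher. Over the 4 genes away from that part and chromosome 15, none was higher and 1 was lower. The difference between this list and the interferon list was not tested. Its higher members were HLA-E, HLA-DQB1 and HLA-DRB1 (0.54, 0.53 and 0.36), and its lower members included PSMB9, an immunoproteasome subunit (-0.35 ± 0.06). Of these 4, HLA-DQB1 lost its call only without the iEV array with AP21967, and the others without either iEV array (adjusted p at most 0.168).

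**Figure D3:**
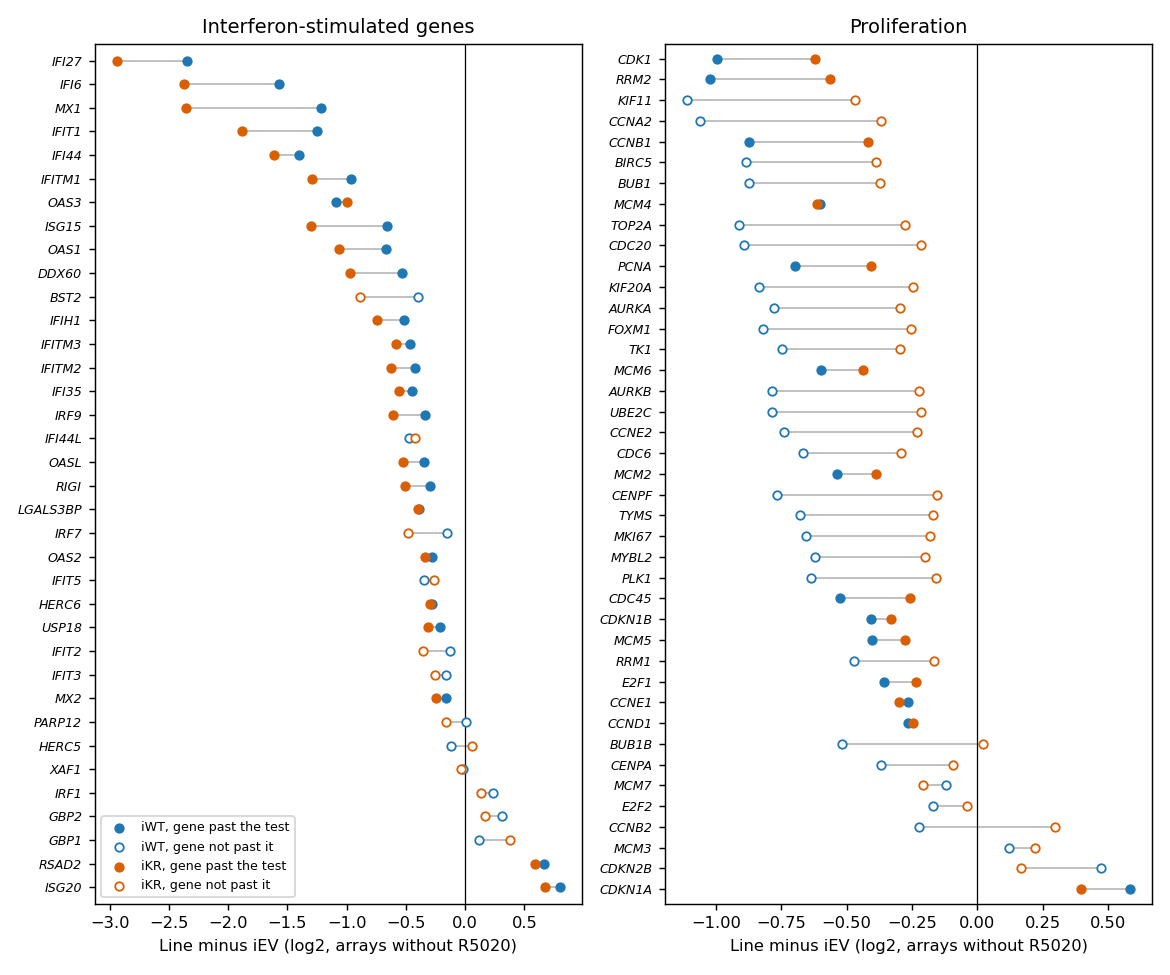
Log2 difference of iWT (blue) and iKR (orange) from iEV on arrays without R5020 for the 36 interferon-stimulated genes (left) and the 41 proliferation genes (right) tested, with filled points for genes past the test. Most points lie left of 0 in both panels, with iKR further left in 31 interferon-stimulated genes and iWT further left in 36 proliferation genes.

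Of 41 proliferation genes, 13 were lower (31.7%, against 8.75% of all genes) and 1 was higher, with a median of -0.46. In 34 of the 41 all receptor-carrying arrays lay below both iEV arrays (82.9%, against 20.8% of all genes). The shift was larger in iWT (median -0.66) than in iKR (-0.25). In 36 of the 41 the iWT difference was the more negative (87.8%, against 48.5% of all genes). The difference between the receptor lines was not tested. CDK1, the mitotic kinase, was at 12.20 and 12.33 in iEV, 11.15 and 11.39 in iWT and 11.51 and 11.78 in iKR. MCM4, a subunit of the replicative helicase, was at 12.48 and 12.62 in iEV and between 11.87 and 11.99 in the receptor lines. MKI67, which encodes the proliferation marker Ki-67, was at 9.91 and 10.02 in iEV, 9.20 and 9.42 in iWT and 9.77 and 9.80 in iKR and did not pass (adjusted p = 0.148). The 1 member that rose was CDKN1A, the cell cycle inhibitor p21 (0.49 ± 0.08), which lies in the part of chromosome 6 where higher genes were frequent. The count of lower members was 35 when each line had its own mean and 24 without the iKR array with AP21967, 8 when all 10 arrays were fitted, and 1 without either iEV array. CDK1 and RRM2, the ribonucleotide reductase subunit (-0.79 ± 0.16), were at adjusted p between 0.126 and 0.198 without an iEV array.

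Genes known to respond to progestins and glucocorticoids were more often lower than higher in the receptor lines when no ligand was given: of 31 tested, 9 were lower (29.03%, against 8.75% of all genes) and 4 higher (12.9%, against 9.42%), with a median of -0.08. Without 1 or the other iEV array 4 were lower. ZBTB16, a transcriptional repressor, was at 7.61 and 7.47 in iEV, 5.95 and 6.01 in iWT and 6.16 and 6.06 in iKR. FKBP5, a co-chaperone of steroid receptors, was at 8.98 and 9.15 in iEV, 8.24 and 7.81 in iWT and 8.04 and 7.88 in iKR. SGK1, a serum- and steroid-induced kinase, was at 9.88 and 9.76 in iEV and between 8.81 and 9.20 in the receptor lines. All 3 were lower on each receptor-carrying array than on either iEV array. Their differences were -1.49 ± 0.07, -1.07 ± 0.12 and -0.80 ± 0.13, and HSD11B2, which inactivates glucocorticoids, had -0.77 ± 0.08. SGK1 was at adjusted p = 0.137 and 0.11 without 1 or the other iEV array, and HSD11B2 at 0.0511 without the one lacking AP21967.

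With AP21967 and R5020 together FKBP5 was at 10.76 in iWT and 10.92 in iKR, above both iEV arrays, and SGK1 was at 11.29 and 10.70. ZBTB16 reached 7.74 and 7.37, which is above iEV in iWT only. These iEV levels are without R5020, since iEV had no array with it, so the order of the lines with R5020 was not measured. TSC22D3, the glucocorticoid-induced leucine zipper gene (-0.71 ± 0.09), was below both iEV arrays also on the 4 arrays with R5020. Among the higher members DUSP1, a phosphatase of MAP kinases, rose by 0.70 ± 0.08. The part of residual steroids in the medium was not tested.

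**Figure D4:**
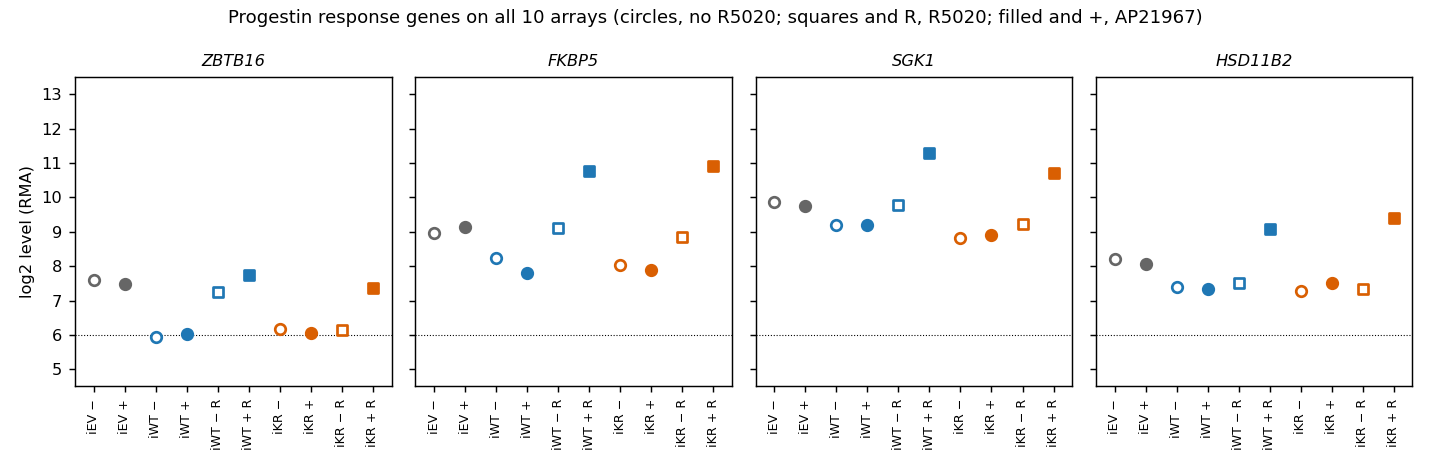
Log2 level of 4 progestin response genes on all 10 arrays, with circles for arrays without and squares for arrays with R5020 and filled symbols for AP21967. Without R5020 the iWT and iKR points lie below the 2 iEV points in each panel, and FKBP5 reaches 10.76 and 10.92 with both compounds.

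Among 28 steroid and nuclear receptor genes 4 were higher (14.3%) and 3 lower (10.7%), near the shares of 9.42% and 8.75% over all genes, with a median of 0.04. Of the 4 higher genes 1 lies on chromosome 15 and 2 in the first part of chromosome 6, described below. Beside PGR, RORA on chromosome 15 rose by 0.88 ± 0.07 and PPARD by 0.37 ± 0.05, and NR2F1, the orphan receptor COUP-TF1, fell by 1.39 ± 0.19. NR2F1 and PPARD lost their call without either iEV array (adjusted p between 0.0651 and 0.0978). Of 20 coregulator and chaperone genes 2 were higher (10%) and 5 lower (25%). The SUMO ligase gene PIAS1, also on chromosome 15, rose by 0.55 ± 0.05 and its relative PIAS2 fell by 0.41 ± 0.05. PIAS2 was at adjusted p = 0.0877 without the iEV array with AP21967. Of 22 estrogen receptor targets 4 were higher and 4 lower (18.2% each, against 9.42% and 8.75% of all genes). Most of these calls rested on both iEV arrays, and without the iKR array lacking AP21967 1 was higher and 3 lower. HSPB8, a small heat shock protein, was at 1.29 ± 0.10 and the carbonic anhydrase gene CA12 at -0.90 ± 0.24. CA12 was at adjusted p = 0.27 and 0.311 without 1 or the other iEV array and lost its call also without either iKR array.

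Lineage lists had members called in both directions, and without an iEV array at most 2 members of each were called in a direction. Of 24 luminal genes 4 were higher (16.7%) and 3 lower (12.5%), against 9.42% and 8.75% of all genes. The 22 basal, mesenchymal and stem genes had 5 higher (22.7%) and 1 lower (4.55%). The 39 homeobox, SOX and developmental factors had 6 higher and 6 lower (15.4% each). CD24, a mucin-like surface protein, was at 12.96 on both iEV arrays and between 13.97 and 14.14 in the receptor lines, and its 5 other probe sets gave 1.06 to 1.53. CLDN4, an epithelial claudin, rose by 0.87 ± 0.05. LMO3, a transcriptional cofactor, fell by 1.57 ± 0.13. All 3 kept their call when any of the 6 arrays was left out.

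Several signaling and adhesion lists held more higher than lower calls, and most of these calls rested on both iEV arrays. Of 35 cadherin and adhesion genes 9 were higher (25.7%, against 9.42% of all genes) and 2 lower (median 0.06), with 5 higher without 1 or the other iEV array, and the 2 lower ones were CLDN8 and ALCAM (-1.51 ± 0.22; adjusted p 0.103 and 0.117 without 1 or the other iEV array). Of 38 matrix and protease genes 12 were higher (31.6%) and 3 lower (median 0.13), with 5 and 6 higher without 1 or the other iEV array. The kallikrein protease genes KLK5, KLK6, KLK7 and KLK8, which neighbor each other on chromosome 19, were all higher, by 0.94, 0.30, 1.34 and 1.08. KLK7, which cleaves desmosomal proteins in skin, was at 8.06 and 7.89 in iEV and between 9.06 and 9.53 in the receptor lines. The heparan sulfatase gene SULF1 fell by 1.17 ± 0.10, and its 2 other probe sets gave -1.65 and -1.43.

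Of 34 ERBB, IGF and FGF pathway genes 9 were higher (26.5%) and 2 lower (median 0.09), with 2 higher without 1 or the other iEV array. IGF1R was joined by its adaptor gene IRS1 (0.51 ± 0.11) and by IGFBP5, a binding protein of its ligands (0.52 ± 0.05). KITLG, the ligand of the KIT receptor, fell by 1.95 ± 0.18, from 8.03 on both iEV arrays to between 5.74 and 6.54, and FGFR4 fell by 0.59 ± 0.06. Without the iEV array with AP21967 the adjusted p was 0.297 for IRS1, 0.0528 for KITLG and 0.0561 for FGFR4, and IRS1 also lost its call without the other iEV array (0.0699) or the iKR array lacking AP21967 (0.0654). Of 44 WNT, Notch, TGF-beta and hedgehog genes 7 were higher (15.9%) and 1 lower, and 2 and 1 were higher without 1 or the other iEV array, with TGFB1, the cytokine TGF-beta 1, at 0.84 ± 0.05; a dimmer probe set of TGFB1 gave -0.09.

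The S100, epidermal and secreted list was split, with 9 of 33 higher and 8 lower; without the iEV array lacking AP21967 these were 5 and 3, and without the other 2 and 3. S100A8 and S100A9 encode partners of the calprotectin complex and differed in direction: S100A9 was at 9.21 and 9.13 in iEV and between 7.83 and 8.19 in the receptor lines, a difference of -1.14 ± 0.09 (adjusted p = 0.0008). Involucrin, IVL, a precursor of the cornified envelope, rose by 0.71 ± 0.13, while CSTA, which is not on the list and encodes cystatin A, a protease inhibitor of the same structure, fell by 1.69 ± 0.05 (at least 2.26-fold with the receptor lines set to 6). The neighbors SPRR1A and SPRR3 rose together, as given above, while the secreted proteins AZGP1 and APOD fell. On the 6 arrays the shares of this list were 27.3% higher and 24.2% lower, against 9.42% and 8.75% of all genes.

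Metabolic and transport lists held more lower than higher calls, most of which rested on both iEV arrays. Of 38 transport genes 12 were lower (31.6%, against 8.75% of all genes) and 4 higher, and 7 and 5 were lower without 1 or the other iEV array, with AQP3, a water and glycerol channel (-1.43 ± 0.10), and ATP1B1, the beta subunit of the sodium pump (-1.28 ± 0.07), next to CLCA2. Of 22 cholesterol and fatty acid synthesis genes 7 were lower (31.8%) and none was higher (median -0.22). In 15 of the 22 all receptor-carrying arrays lay below both iEV arrays (68.2%, against 20.8% of all genes). ELOVL6, a fatty acid elongase (-0.74 ± 0.09), and DHCR7, the last enzyme of cholesterol synthesis (-0.45 ± 0.06), had the largest differences. No member of this list was called without 1 or the other iEV array. Of 28 hypoxia and glycolysis genes 8 were lower (28.6%) and 1, ADM, was higher; without 1 or the other iEV array 2 and 0 were lower. Of 27 aldo-keto reductase and NRF2 target genes 6 were lower (22.2%) and 3 higher, and 2 were lower without 1 or the other iEV array. After AKR1C3 the largest was PIR, an iron-binding oxidoreductase (-0.81 ± 0.13), which lost its call without either iEV array (adjusted p 0.0922 and 0.136). AKR1C1 fell by 0.54 ± 0.06 and its other probe sets gave -0.78 to 0.11. The AKR1C genes are near copies of each other, and AKR1C1 and AKR1C2 probe sets may share transcripts.

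Of 28 steroid and xenobiotic conjugation genes 5 were lower (17.9%, against 8.75% of all genes) and 1 higher (3.57%, against 9.42%). SULT1E1, the estrogen sulfotransferase, was at 6.54 and 6.66 in iEV and between 4.69 and 5.18 in the receptor lines, so its difference of -1.62 ± 0.13 was measured only as a bound (1.51-fold with the receptor lines set to 6). Of 13 cancer-testis antigens 4 were lower (30.8%) and 1 higher (7.69%), and of 7 metallothioneins 2 were lower (28.6%). Most lower calls of the conjugation genes and metallothioneins rested on both iEV arrays, as did part of those of the cancer-testis antigens. The 29 amino acid stress and unfolded protein response genes had 3 lower (10.3%) and 2 higher (6.9%), near the shares over all genes.

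The genes that were higher were not spread evenly over the genome. Of 325 genes tested on chromosome 15, 158 were higher in the receptor-carrying lines (48.6%, against 9.42% of all genes) and 5 were lower, and in 216 (66.5%) all 4 receptor-carrying arrays lay above both iEV arrays, against 22.1%. Of 590 genes on chromosome 6, 175 were higher (29.7%). Without the iEV array lacking AP21967 the higher genes of chromosome 15 numbered 41, and without the one with AP21967 they numbered 25. On each of the other 21 chromosomes between 4.25% and 12.5% of genes were higher and between 5.35% and 14.7% lower. Chromosomes and gene order are from the RefSeq gene table of GRCh38.p14. This pattern was noticed in the data, and no test is attached to it.

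The size of the shift was small and alike in both receptor lines. The median difference over chromosome 15 genes was 0.24 in iWT and 0.23 in iKR. On single arrays the median over these genes, relative to the iEV mean, was 0.24 and 0.26 in iWT and 0.23 and 0.24 in iKR without R5020. On the 4 arrays with R5020 it was 0.22 to 0.27, so all 8 receptor-carrying arrays were alike. Over the genes of all chromosomes other than 6 and 15 the same medians lay between -0.01 and 0.02.

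Cut in order into 11 blocks of 29 or 30 tested genes, chromosome 15 had block medians of 0.08 to 0.39, and the share of higher genes was 26.7% to 63.3%. Chromosome 6 was divided: its first 13 of 20 blocks, from DUSP22 to SLC17A5, had medians of 0.03 to 0.39 and held 158 of the 175 higher genes, while the last 7 blocks had medians of -0.07 to 0.04 and 17 higher genes among 203 (8.37%). The boundary was placed after the values were seen. Of the 32 higher genes past 2.0 fold, TJP1, TPM1 and IGF1R lie on chromosome 15, and MYLIP and MMUT in the first blocks of chromosome 6, as do the higher HLA genes and PPARD. With both regions left out, 705 genes of 10128 were higher (6.96%) and 936 were lower.

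**Figure D5:**
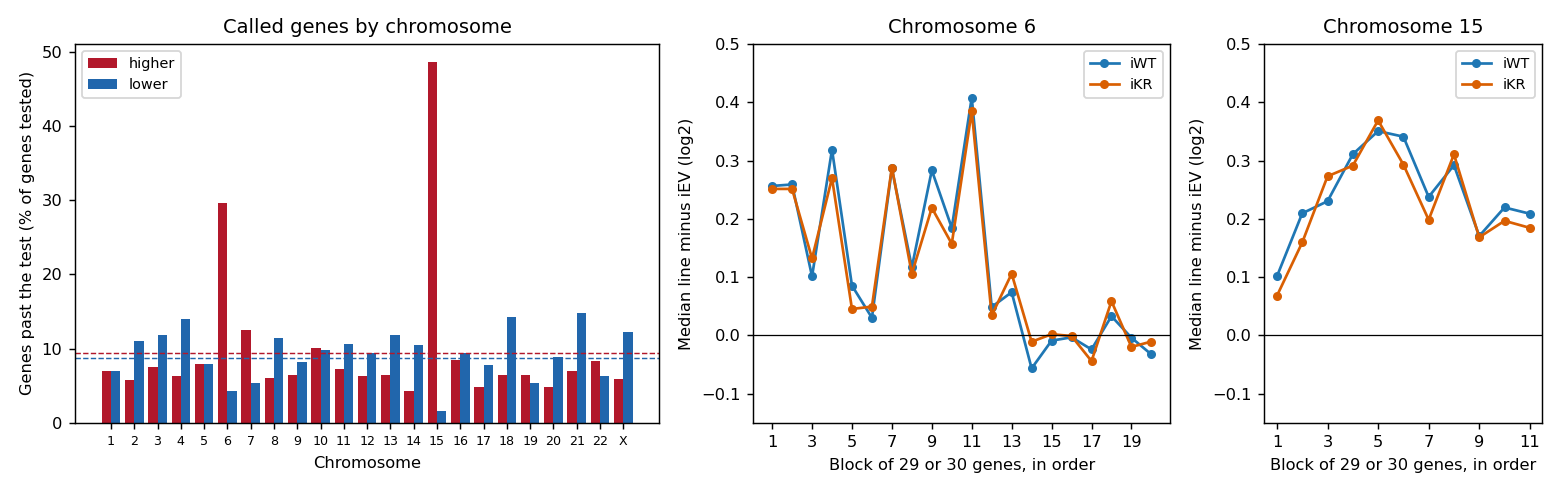
Left, percentage of tested genes on each chromosome that were higher (red) or lower (blue) in the receptor-carrying lines, with dashed lines at 9.42% and 8.75%; middle and right, median log2 difference from iEV of iWT (blue) and iKR (orange) in consecutive blocks of genes along chromosomes 6 and 15. Chromosome 15 stands at 48.6% higher, and on chromosome 6 the medians fall to about 0 after block 13.

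Shorter runs of neighbors also moved together. SGCE and PEG10, neighboring genes on chromosome 7 that are expressed from the paternal allele, had differences of -1.25 ± 0.07 (at least 2.23-fold with the receptor lines set to 6) and -1.61 ± 0.09. The flavin monooxygenase genes FMO1 and FMO4 on chromosome 1 had differences of -1.22 and -1.35, and HMGN5 and SH3BGRL are neighbors on the X chromosome. PLAAT4, PLAAT2 and PLAAT3, phospholipase and acyltransferase genes side by side on chromosome 11, had differences of -1.18, -0.68 and -0.41. In all, 6 pairs of adjacent tested genes were both past 2.0 fold in the same direction.

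The study listed genes upregulated by PR without ligand, taking constitutive and inducible lines together. The lists are thus not independent of the values here, and members called lower run against the lists' direction. The study's lists for wild-type PR and for the K388R receptor, as used here, leave out the genes listed for both receptors. Of 101 tested genes of its list for both receptors 22 were higher (21.8%, against 9.42% of all genes) and 21 lower (20.8%, against 8.75%), with a median of 0.03, and without 1 or the other iEV array 7 and 5 were higher and 10 and 8 lower. They held APOD, LMO3 and NREP, a neuronal regeneration-related protein gene (-1.58 ± 0.12), among the lower and PGR and CTNND2 among the higher. Of 131 genes of the list for wild-type PR 43 were higher (32.8%) and 16 lower (median 0.14), with 8 and 5 higher without 1 or the other iEV array, and the difference was positive in both lines in 77. The difference was positive in both lines in 58.8% of this list and in 40.5% of all genes. Of these 131 genes 38 lie on chromosome 15, which holds 325 of the 10840 genes tested. These 38 held 25 of the 43 higher members. Away from chromosome 15 and the first blocks of chromosome 6, 18 of 92 were higher and 15 lower, with a median of 0.03. Of 63 genes of the list for the K388R receptor 14 were higher and 14 lower (22.2% each), and 2 lie on chromosome 15. Of 19 genes the study took from earlier work 2 were higher (10.5%) and 6 lower (31.6%). Most calls in this list and in the list for the K388R receptor rested on both iEV arrays.

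The comparison was also made within each inducer state. No gene passed an adjusted p of 0.05 for a change of the receptor difference with AP21967 (0.0% of 10840; 315 genes at an unadjusted p below 0.05, by limma), and the count was also 0 with eBayes trend, with a stricter level filter and with probe sets averaged. In iWT the differences without and with AP21967 correlated at r = 0.86 (rho = 0.66) over the 10840 genes and in iKR at r = 0.87 (rho = 0.67); genes are not independent, and the arrays of a line share a clone. Over the 94 genes past 2.0 fold the median change between the inducer states was 0.15 in each line. The largest was PGR in iKR, with 1.52, and in iWT GASK1B, with 1.10. With 1 array for each line and state, a p that misses the threshold does not show that AP21967 had no part.

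CDH10, a type II cadherin, was the 1 gene past 2.0 fold in opposite directions. It was at 8.96 and 8.87 in iEV, 12.42 and 12.35 in iWT and 6.74 and 6.28 in iKR, and with R5020 at 12.30 and 11.64 in iWT and 6.65 and 6.72 in iKR. KYNU, which acts in tryptophan breakdown, was past 2.0 fold downward in both lines (-1.06 in iWT and -3.08 in iKR) and did not pass the test (adjusted p = 0.0874), the 1 such gene.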

How the data were processed

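Total RNA of 10 cultures was hybridized to Affymetrix arrays, 6 of them used here and the 4 with R5020 described beside them. The authors deposited log2 values normalized by RMA for 22277 probe sets, processed with the affy package in R per the methods; the settings are not given in the sources used here. The labels' exponent for AP21967 reads as 10 nM and the methods give 1 nM; the dose is the same in all treated cultures. Precision is limited by the number of arrays.

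Probe sets with 1 gene symbol (19070) were kept, 1043 with several and 2164 with none were left out, and each of 11963 genes was represented by its brightest probe set, by the average of the 6 arrays. Genes with at least 1 array at 6 or more (10840) were fitted with limma 3.58.1 in R 4.3.3, with receptor and AP21967 as terms, and p-values were adjusted over all of them by Benjamini-Hochberg. The fit was tested on simulated data. Tables were made with Python 3.11.15, pandas 2.3.3 and numpy 2.4.6, and figures with matplotlib 3.10.9.

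Named genes were PGR, the 15 largest past 2.0 fold in each direction without overlap, up to 4 called genes per list (6 for the study's list for both receptors), up to 4 genes opposite between the lines (1 was found) and the 4 lowest interaction p-values. Neighbors, genes of chromosomes 6 and 15, KYNU, MKI67 and further members of lists (among them IRF9, ISG15, OAS3, RSAD2, ISG20, TSC22D3, DUSP1, CDKN1A, IVL, CSTA and S100A9) were named after their values were seen. The 23 hand-made lists, the named-gene rule and the comparison itself were chosen with earlier results of these data known. Alternatives were other probe set rules, filters, normalizations, covariates, line as a random block and each array left out.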

Additional observations from a re-analysis of the deposited data

Results flagged for a closer look

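With 4 receptor-carrying arrays per gene, 115 named genes were examined for an array that stood apart from the other 3, and chance flags about 1 in 20. HPSE2 stood apart in iKR without AP21967, at 6.755 against 6.616 to 6.631 on the other arrays, far below iEV in each case. DNAJB1, a co-chaperone of HSP70, was at 11.49 in iKR with AP21967 against 11.7 on the others, and DHCR7 was at 11.72 in iKR without AP21967 against 11.59 to 11.61.

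CDH10 moved in opposite directions in the receptor lines, with 3.474 in iWT and -2.404 in iKR against iEV on average. The iKR minus iWT difference was -5.878, and both arrays of each line moved the same way. The difference was not tested.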

How the results depend on the processing

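Most counts stayed within 1.5 times of the values given under other normalizations, filters, covariates and with the line as a random block (870 higher and 769 lower genes). Without _x_at and _s_at probe sets, which tests fewer genes, 590 genes were higher, 577 lower and 17 higher past 2.0 fold. With a mean for each line the counts were 1555 and 1521. Without the iWT arrays 69 genes were higher past 2.0 fold, and at 1.5 fold in both lines the counts were 147 and 143. With 1 array left out, higher genes numbered 119 to 932, lower genes 109 to 896, and those past 2.0 fold 26 to 36 and 44 to 63; both low ends of the first counts came from leaving out the iEV array with AP21967. Of the 32 and 62 genes past 2.0 fold, 24 and 42 stayed called and past 2.0 fold without that array and 28 and 42 without the other iEV array. Leaving out the regions of chromosomes 6 and 15, chosen after seeing the data, gave 705 and 936 genes.

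Directions turned for few named genes. Without _x_at and _s_at probe sets AKR1C1 was at 0.11 and TGFB1 at -0.0901, each on another probe set. Without the iWT arrays CDH10 was at -2.40 and SLC22A2 at -0.0014. With 1 array left out the difference ranged from -0.75 to 1.85 for CDH10, -0.21 to 0.39 for OPA3, -0.26 to 0.32 for SLC22A2 and -0.439 to 0.0663 for MAGT1; MAGT1 was called without the iEV array lacking AP21967 (adjusted p = 0.048) and CDH10 with a mean for each line, without both iWT arrays and without both iKR arrays. OPA3, SLC22A2 and MAGT1 are among the genes with the lowest interaction p-values. For the other changes the cause was not tested. No paired analysis was possible because all samples carry the same replicate number; arrays of the same AP21967 state were matched through the AP21967 term.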
